A study of Homo sapiens with 24 samples.

Results

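CCND1 encodes cyclin D1, the partner of CDK4 and CDK6 that drives cells from G1 towards DNA replication, and its transcription responds to the kinase ERK. The growth factor and RAS pathway ends in ERK, and active ERK raises the transcription of a small set of genes, many of which encode proteins that turn the pathway down again. In melanoma cells, where the pathway is commonly kept on by mutation, the level of these output genes is widely read as a measure of ERK activity. CCND1 was described here beside 9 of them, namely the phosphatases DUSP4 and DUSP6, the feedback inhibitors SPRY2, SPRY4, SPRED1 and SPRED2, the ETS transcription factors ETV4 and ETV5, and PHLDA1. The question was whether these ERK outputs moved with CCND1 when LSM14A was depleted.

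The 10 genes were found by matching the Ensembl IDs of the count table to gene symbols in the Gencode annotation of hg19, and all 10 were among its 20345 IDs. CCND1 was chosen by its higher total RNA after LSM14A knockdown in untreated cells, so its values in that comparison are a description and carry no test. The other 9 were named for their place in the pathway. The cells are labelled A2058, an established human melanoma line, in all samples. In them LSM14A was depleted by siRNA (siLSM14A) or a scrambled siRNA was given in its place (siCTRL), each at 20 nM in the methods. Transfected cells were left untreated (NT) or were given 10 mM hydroxyurea (HU) for 2 h. LSM14A is an RNA-binding protein of P-bodies and the human counterpart of yeast Scd6, and HU blocks the enzyme that makes deoxyribonucleotides. Each of the 4 conditions had 3 replicates, and each replicate number has 1 library of total and 1 of polysomal RNA, which makes 24 libraries. The labels do not say whether the 2 libraries of a number came from the same lysate. Polysomal RNA came from the densest fractions of 15–50% sucrose gradients, to which mRNAs with many ribosomes sediment. All conditions, the controls included, came from this one line, and none of them was left without transfection.

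Libraries held 24789280 to 40645263 counts for total RNA and 28776634 to 44897501 counts for polysomal RNA. LSM14A RNA in total RNA was 80.9 to 91.0 CPM (read counts as a share of the library, scaled by edgeR's TMM factors) in the 6 siCTRL libraries and 6.14 to 8.31 CPM in the 6 siLSM14A libraries. In polysomal RNA it was 29.3 to 54.4 CPM and 1.74 to 2.72 CPM, so the groups did not overlap in either fraction. All 10 melanoma lineage markers were detected, among them SOX10 with a median of 605 CPM and MLANA with a median of 7.97 CPM, and their summed level was 2536 to 2753 CPM over the conditions. None of the 10 was called by edgeR in total RNA after knockdown, but the groups of single markers did not overlap. Over all genes, 17.3% did not overlap untreated and 14.9% with HU. NGFR was at 38.5 to 42.4 CPM in siCTRL NT and 45.3 to 54.0 CPM in siLSM14A NT (log2 change 0.32, edgeR adjusted p = 0.127), and at 42.7 to 44.5 CPM and 47.6 to 56.8 CPM with HU (0.28, edgeR adjusted p = 0.119). With HU, AXL was at 165 to 174 CPM with siCTRL and 185 to 208 CPM with siLSM14A (0.20, edgeR adjusted p = 0.23), and DCT at 801 to 909 CPM and 665 to 748 CPM (-0.26, edgeR adjusted p = 0.0921). SOX10 with HU was at 550 to 610 CPM and 612 to 666 CPM (0.11, edgeR adjusted p = 0.636). MITF was higher untreated, at 118 to 120 CPM and 125 to 131 CPM (0.09, edgeR adjusted p = 0.543). With HU it was lower, at 120 to 123 CPM and 115 to 119 CPM (-0.06, edgeR adjusted p = 0.815). Of 8 measured markers of epithelial cells, leukocytes, endothelium and fibroblasts none exceeded 2.83 CPM, and KRT5 had 0 counts. Their sum was 4.14 to 4.92 CPM in siCTRL NT and 4.94 to 5.22 CPM in siLSM14A NT, and 4.25 to 4.57 CPM and 4.47 to 5.73 CPM in the matching HU cells. The part of these markers in the results below was not tested.

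CCND1 (ENSG00000110092) is annotated in hg19 at chr11:69455924-69469242, plus strand. Its total RNA in untreated cells was 131, 150 and 136 CPM in the siCTRL replicates and 210, 221 and 198 CPM in the siLSM14A replicates. Every knockdown library was therefore above every control library, in a comparison where 17.3% of all genes did not overlap. The means were 139 ± 9.68 and 210 ± 11.4 CPM (SD, n = 3 each), a log2 change of 0.59 with a 95% interval of 0.45 to 0.74, or 1.51-fold. This is the comparison by which CCND1 was chosen. RNA was measured in bulk, so a change in the cells that express a gene and a change in RNA per cell cannot be told apart here.

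In HU-treated cells, sequenced as other libraries, CCND1 total RNA was 142, 158 and 139 CPM with siCTRL and 188, 222 and 205 CPM with siLSM14A. The groups again did not overlap, as for 14.9% of all genes. The means were 146 ± 9.86 and 205 ± 16.9 CPM (SD, n = 3 each), and the log2 change was 0.48 (SE 0.07, 95% interval 0.33 to 0.63, edgeR quasi-likelihood adjusted p = 0.00456). CCND1 ranked number 36 by p among 12475 genes tested. Same-numbered siCTRL libraries of NT and HU cells deviated together (correlations of 0.27, 0.25 and 0.19), so this test is not fully independent of the comparison by which CCND1 was chosen. Earlier results of these data were also known when the genes were chosen. With the replicate number as a block, the change was 0.48 (SE 0.04, edgeR adjusted p = 8.38e-13), in a fit that called 6.85% of all genes. Deviations of same-numbered libraries of these 2 groups correlated at 0.33, 0.18 and 0.25. This met the rule of a correlation above 0.1 in all 3 numbers, which the untreated groups did not meet (-0.25, 0.26 and -0.22). Leaving out each replicate in turn gave log2 changes of 0.42 to 0.54 and edgeR adjusted p-values of 0.00188 to 0.0376. In 1 edgeR fit over all 24 libraries, in which both fractions share 1 estimate of the spread, the change was 0.49 with an adjusted p of 0.825, and the call was lost.

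**Figure D1:**
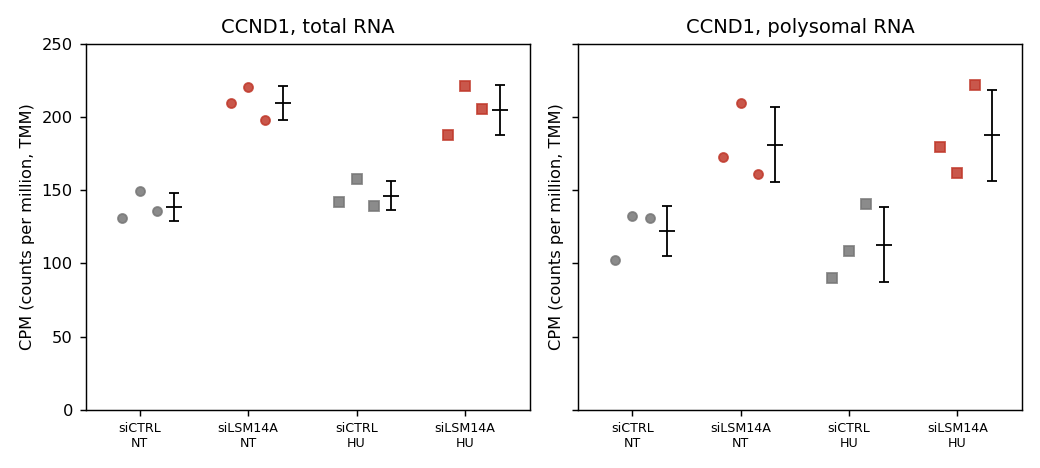
CCND1 in total RNA (left) and polysomal RNA (right), in CPM on a linear axis from 0, by siRNA and treatment. Points are the 3 replicates of a condition (grey siCTRL, red siLSM14A, circles NT, squares HU) and black marks are the mean and SD; in both fractions and both treatments the siLSM14A points lie above the siCTRL points.

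In polysomal RNA, CCND1 showed differences of similar size with a wider spread. Untreated siCTRL replicates held 102, 133 and 131 CPM and untreated siLSM14A replicates 173, 210 and 161 CPM. These are the conditions and replicate numbers by whose total RNA CCND1 was chosen, so this test may not be independent of that choice. The log2 change was 0.57 (SE 0.16, 95% interval 0.20 to 0.93, edgeR unadjusted p = 0.00575, adjusted p = 1). With HU the siCTRL replicates held 89.8, 108 and 140 CPM and the siLSM14A replicates 179, 162 and 222 CPM, a log2 change of 0.74 (SE 0.18, 95% interval 0.34 to 1.14, edgeR unadjusted p = 0.00157, adjusted p = 0.698). Neither group overlapped its control, where 6.5% of all genes did not overlap untreated and 9.46% with HU. Neither change passed the adjusted threshold of 0.05 in these fits. Among all genes tested in polysomal RNA, 0.0162% passed it in untreated cells and 0.0653% with HU. With HU the change of CCND1 did pass with the replicate number as a block (0.75, edgeR adjusted p = 0.0133, 0.326% of all genes called) and in 1 fit over all 24 libraries (0.73, edgeR adjusted p = 0.0270, 0.226% called). Deviations of same-numbered libraries of these 2 polysomal groups correlated at 0.045, 0.28 and 0.40. By the rule of a correlation above 0.1 in all 3 numbers, the block was not supported here.

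None of the 9 ERK output genes was called with CCND1 in total RNA by DESeq2, or by edgeR without a block or a correction for GC content (described below). Their changes were smaller than its change in both treatments. With HU, SPRY4 was called as lower in 3 of 9 alternative fits, namely the replicate block, the GC correction and both together. In untreated cells 1 of the 10 genes, CCND1, passed an adjusted p of 0.05 as higher and 0 as lower, where 0.175% of 12544 genes passed as higher and 0.391% as lower. Since that contrast chose CCND1, nothing is read from its call. The 9 other log2 changes lay between -0.12 (ETV4) and 0.15 (PHLDA1), with a median of 0.01, against a median of 0.00 over all genes. Their smallest edgeR adjusted p was 0.394. The highest upper bound of their 95% intervals was 0.41, for PHLDA1. With HU, CCND1 was again the 1 gene of 10 called higher (0.24% of 12475 genes) and 0 were called lower (0.561%). The other 9 lay between -0.23 (SPRY4) and 0.06 (SPRED1), with a median of 0.02. Here the highest upper bound was 0.20, for SPRED1, and the lower bound of CCND1 was 0.33. With HU the interval of CCND1 lay above those of all 9. These libraries are not those by which CCND1 was chosen, but they are not fully independent of them. The genes were also chosen with earlier results of these data known, so the place of CCND1 is a description. In untreated cells the place of CCND1 above the 9 follows in part from its choice, and no comparison of intervals is drawn there.

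**Figure D2:**
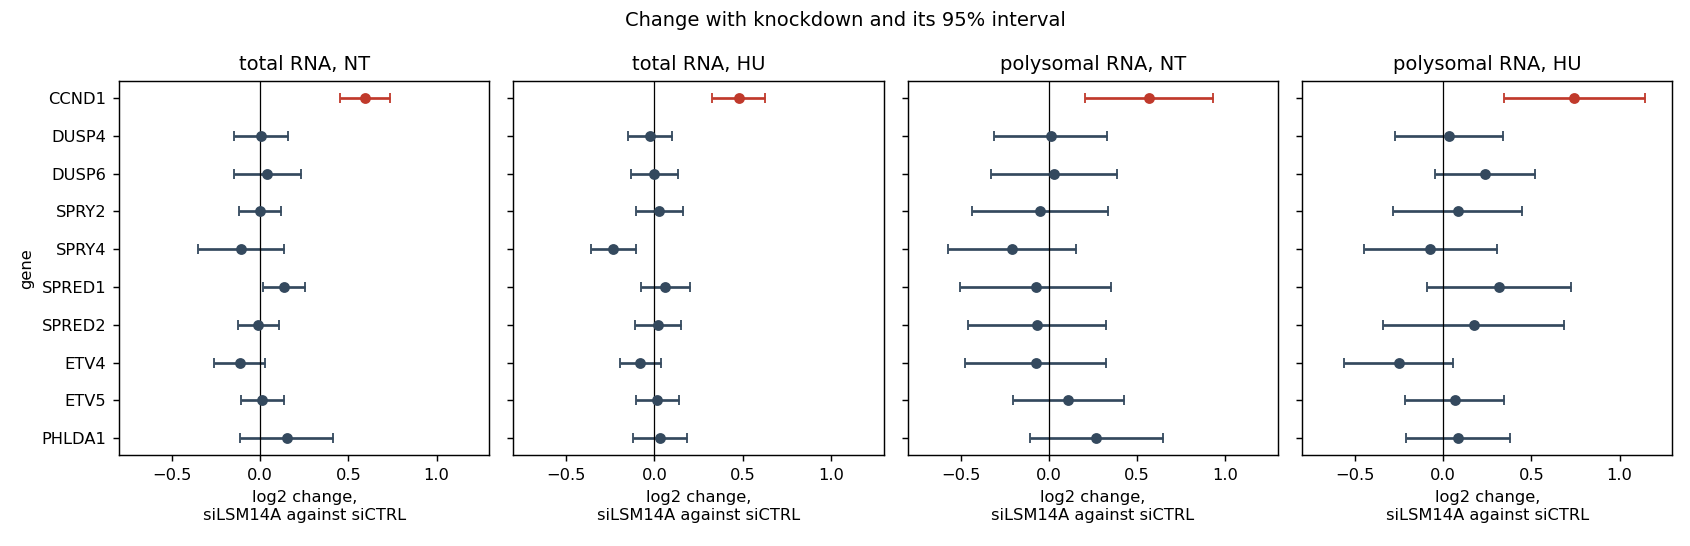
Log2 change between siLSM14A and siCTRL for the 10 genes, in total RNA and polysomal RNA of NT and HU cells. Points are edgeR estimates and bars their 95% intervals. In total RNA of HU cells the interval of CCND1 (red) lies above those of the 9 other genes, which mostly include 0. In NT cells the place of CCND1 follows in part from its choice by that comparison, and no comparison of intervals is drawn there.

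DUSP4 and DUSP6 encode phosphatases that dephosphorylate ERK, DUSP4 in the nucleus and DUSP6 in the cytoplasm. DUSP4 (ENSG00000120875, minus strand of chromosome 8) had the highest total RNA per kilobase of exon of the 10 genes, at 58.3 ± 4.30 CPM per kb (SD, n = 3) in siCTRL NT cells. Its replicates were 388, 447 and 437 CPM with siCTRL and 433, 449 and 395 CPM with siLSM14A, and its log2 change was 0.01 (95% interval -0.15 to 0.16). With HU the replicates were 419, 442 and 409 CPM and 395, 444 and 417 CPM, a log2 change of -0.02 (95% interval -0.15 to 0.10). The groups overlapped both times. DUSP6 (ENSG00000139318, chromosome 12) was at 129, 153 and 144 CPM with siCTRL and 154, 157 and 128 CPM with siLSM14A in untreated cells. Its log2 change was 0.04 (95% interval -0.15 to 0.23), and with HU it was 0.00 (95% interval -0.13 to 0.13). Neither phosphatase gene showed a difference larger than the spread between replicates.

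The Sprouty proteins SPRY2 and SPRY4 restrain signalling from receptors to RAS and RAF. SPRY2 (ENSG00000136158, chromosome 13) held 112, 104 and 103 CPM in siCTRL NT and 104, 107 and 108 CPM in siLSM14A NT, with a log2 change of 0.00 (95% interval -0.12 to 0.12). With HU its change was 0.03 (95% interval -0.10 to 0.16). SPRY4 (ENSG00000187678, chr5:141689992-141706020 on the minus strand) was the 1 gene of the 9 with a nominal difference in HU-treated cells. There it held 50.7, 47.9 and 50.3 CPM with siCTRL and 42.9, 41.1 and 43.4 CPM with siLSM14A, so that all knockdown replicates were below all controls. In this comparison 14.9% of all genes did not overlap. The change was in the direction opposite to CCND1, at -0.23 (SE 0.06, 95% interval -0.36 to -0.11, edgeR unadjusted p = 0.00152, adjusted p = 0.116). It was not called at an adjusted p of 0.05. With the replicate number as a block it was called, with a log2 change of -0.23 (SE 0.05) and an edgeR adjusted p of 0.000668, in a fit that called 6.85% of all genes. The GC correction, alone or with the block, also called SPRY4 as lower with HU. In untreated cells SPRY4 was 44.4, 55.2 and 56.4 CPM with siCTRL and 52.4, 52.1 and 40.9 CPM with siLSM14A, which overlapped (log2 change -0.11, 95% interval -0.35 to 0.14).

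SPRED1 and SPRED2 hold down the activation of RAF by RAS, SPRED1 together with the RAS-inactivating protein neurofibromin. SPRED1 (ENSG00000166068, chr15:38545037-38649450) was 90.7, 96.0 and 91.6 CPM in siCTRL NT and 104, 105 and 97.5 CPM in siLSM14A NT, and these did not overlap. Its log2 change of 0.14 (SE 0.05, 95% interval 0.02 to 0.25) had an edgeR unadjusted p of 0.0272 and an adjusted p of 0.394. Groups that did not overlap were found for 17.3% of all genes in this comparison. With HU the SPRED1 groups overlapped, at 82.7, 94.0 and 92.4 CPM and 93.2, 90.7 and 98.7 CPM (log2 change 0.06, 95% interval -0.08 to 0.20). SPRED2 (ENSG00000198369, chromosome 2) ran from 66.9 to 74.8 CPM over the 12 total RNA libraries, and its knockdown changes were -0.01 (95% interval -0.13 to 0.11) in untreated cells and 0.02 (95% interval -0.11 to 0.15) with HU.

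ETV4 and ETV5 are transcription factors whose genes are induced by ERK. ETV4 (ENSG00000175832, chr17:41605212-41656988) held 146, 162 and 150 CPM in siCTRL NT and 150, 142 and 131 CPM in siLSM14A NT, a log2 change of -0.12 (95% interval -0.26 to 0.03). With HU it held 161, 154 and 150 CPM and 144, 154 and 145 CPM, a change of -0.08 (95% interval -0.19 to 0.03). Both changes were below 0, both intervals included it and the groups overlapped. ETV5 (ENSG00000244405, chromosome 3) was 101 to 112 CPM in siCTRL NT and 106 to 112 CPM in siLSM14A NT, and its changes were 0.01 (95% interval -0.11 to 0.13) untreated and 0.02 (95% interval -0.11 to 0.14) with HU. PHLDA1 (ENSG00000139289, chromosome 12), a pleckstrin homology-like protein induced by growth factors, had the widest spread. Its untreated replicates were 179, 250 and 230 CPM with siCTRL and 266, 258 and 210 CPM with siLSM14A (log2 change 0.15, 95% interval -0.11 to 0.41). With HU they were 197, 228 and 219 CPM and 201, 233 and 228 CPM (log2 change 0.03, 95% interval -0.12 to 0.18).

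**Figure D3:**
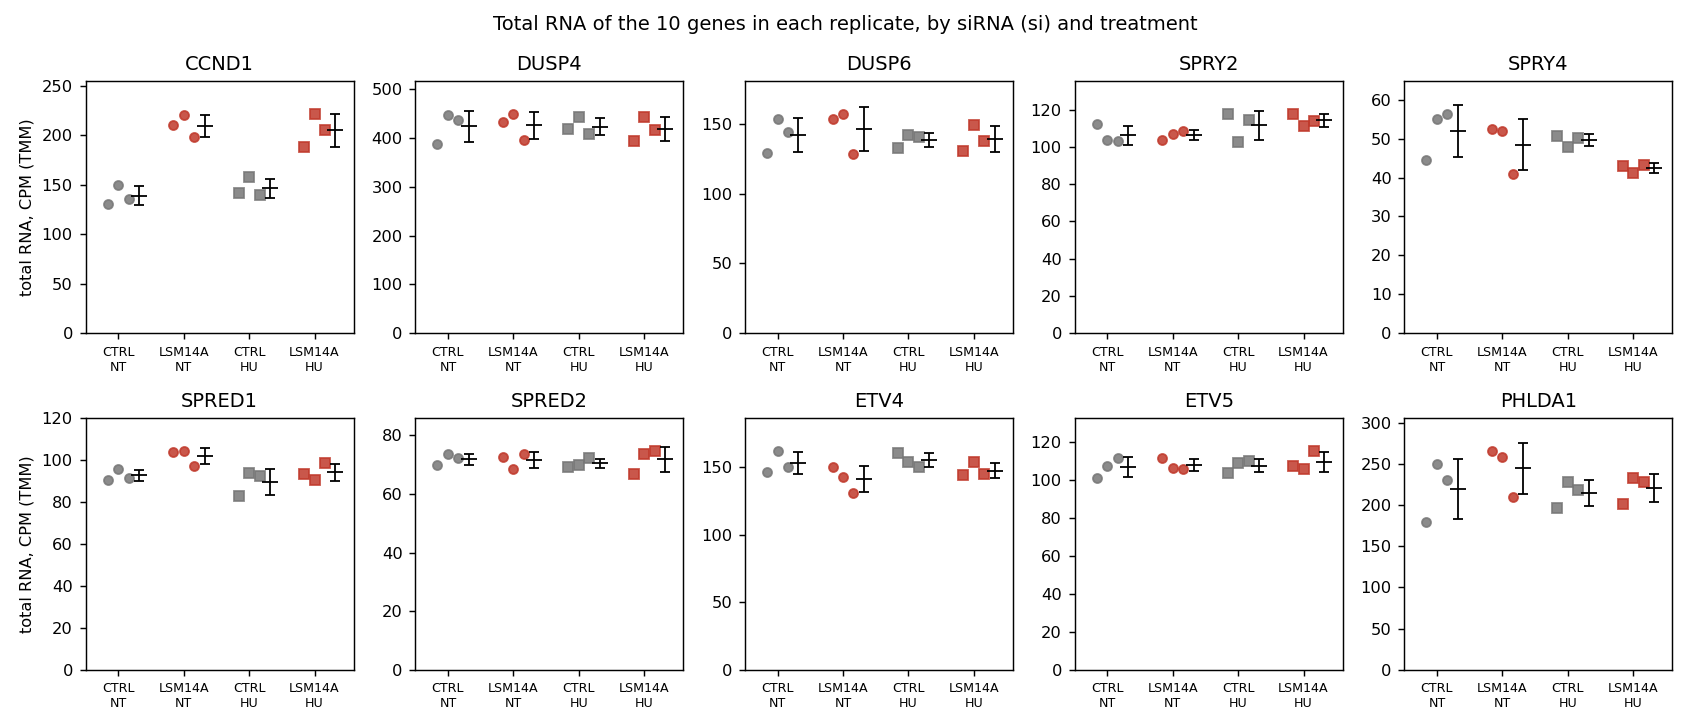
Total RNA of the 10 genes in CPM, 1 panel a gene with its own linear axis from 0. Points are the 3 replicates of each condition (grey siCTRL, red siLSM14A, circles NT, squares HU) and black marks the mean and SD; CCND1 is the gene whose siLSM14A points are above its siCTRL points in both treatments.

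Per kilobase of exon, the 10 genes spanned from SPRY4 at 7.93 ± 1.00 CPM per kb to DUSP4 at 58.3 ± 4.30 CPM per kb in total RNA of siCTRL NT cells (SD, n = 3 each). The order from the top was DUSP4, ETV4, PHLDA1, DUSP6, SPRY2, CCND1, ETV5, SPRED2, SPRED1 and SPRY4. Among neighbours in that order, the replicates of ETV4 and PHLDA1, of PHLDA1 and DUSP6, and of DUSP6 and SPRY2 overlapped. CCND1 was at rank 6 with 29.1 ± 2.03 CPM per kb and moved to rank 2 in siLSM14A NT cells with 44.02 ± 2.39 CPM per kb, where its replicates overlapped those of PHLDA1. In siLSM14A HU cells it was again at rank 2, with 43.0 ± 3.56 CPM per kb.

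In polysomal RNA the knockdown changes of the 9 output genes lay between -0.21 (SPRY4) and 0.27 (PHLDA1) in untreated cells and between -0.25 (ETV4) and 0.32 (SPRED1) with HU. None of the 10 genes was called in either comparison by edgeR on the libraries compared without a block, or by DESeq2, and the fits that called CCND1 with HU called none of the other 9. CCND1 was the 1 gene with an unadjusted p under 0.05 in both, where 1.96% of all genes had one in untreated cells and 4.99% with HU. The untreated value may depend on the choice of CCND1. SPRY4 did not overlap between the untreated groups, at 30.1, 32.1 and 33.4 CPM with siCTRL and 24.97, 29.2 and 28.8 CPM with siLSM14A, where 6.5% of all genes did not overlap. Its log2 change of -0.21 had a 95% interval of -0.57 to 0.15. DUSP6 did not overlap with HU, at 133, 117 and 133 CPM with siCTRL and 143, 149 and 157 CPM with siLSM14A, where 9.46% of all genes did not. That change was 0.24 (95% interval -0.05 to 0.52). Standard errors reached 0.19 untreated and 0.24 with HU, against 0.12 and 0.07 in total RNA, so changes as small as those of total RNA were not detectable in polysomal RNA.

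Translation efficiency (TE), the level of a gene in polysomal RNA relative to total RNA of the same replicate number, did not change detectably for CCND1. Deviations of same-numbered total and polysomal libraries correlated above 0.1 in all 3 numbers of siLSM14A HU but not of the other conditions (-0.31, 0.11 and -0.23 in siLSM14A NT). The log2 TE of CCND1 was -0.36, -0.17 and -0.05 in siCTRL NT and -0.28, -0.07 and -0.30 in siLSM14A NT. The difference was -0.02 (SE 0.18, 95% interval -0.41 to 0.36, edgeR adjusted p = 1). With HU the values were -0.66, -0.54 and 0.01 in siCTRL and -0.06, -0.46 and 0.11 in siLSM14A, a difference of 0.26 (SE 0.22, 95% interval -0.21 to 0.72, edgeR adjusted p = 0.778). The siCTRL HU replicates alone ran from -0.66 to 0.01. The changes of CCND1 in total and polysomal RNA had the same direction and overlapping intervals, and the intervals of TE include changes of either sign.

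For the 9 output genes, the TE difference with knockdown lay between -0.21 (SPRED1) and 0.12 (PHLDA1) in untreated cells and between -0.17 (ETV4) and 0.25 (SPRED1) with HU. Of the 10 genes, 0 were called in each of the 2 comparisons by edgeR or DESeq2, and 0 had an unadjusted p under 0.05. Over all genes 0% were called in each. The same held for TE between HU and NT, in siCTRL and in siLSM14A cells, and for the interaction of siRNA and HU on TE, with 0% of all genes called in each. That interaction was largest for SPRED1, at 0.45 (95% interval -0.16 to 1.05), and it was 0.27 (95% interval -0.33 to 0.88) for CCND1. The TE difference between HU-treated siLSM14A and siCTRL cells, taken across 12649 genes that are no independent replicates, had a Spearman correlation of -0.644 with the GC content of the exons. SPRED1, with the lowest exon GC content of the 10 genes at 36.5%, had the second highest of their TE differences there, and ETV4, with the highest at 60.1%, had the lowest. With each library corrected for GC content these differences went from 0.25 to -0.01 for SPRED1, from -0.17 to 0.04 for ETV4 and from 0.26 to 0.37 for CCND1, each with an edgeR adjusted p of 1.

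None of the 10 genes was called between HU and NT. In total RNA the log2 change with HU in siCTRL cells was 0.08 for CCND1 (95% interval -0.07 to 0.22) and lay between -0.07 (SPRY4) and 0.07 (SPRY2) for the other 9. In siLSM14A cells it was -0.04 for CCND1 (95% interval -0.19 to 0.11) and between -0.19 (SPRY4) and 0.10 (SPRY2) for the rest. SPRY4 had an edgeR unadjusted p of 0.0465 there (adjusted p = 0.855), and it was the 1 gene of 10 under 0.05. SPRY2 in siLSM14A cells was at 104, 107 and 108 CPM untreated and at 117, 111 and 114 CPM with HU. These did not overlap, as for 11.8% of all genes, and the log2 change was 0.10 (95% interval -0.02 to 0.21). In both tests 0 of the 10 were called by edgeR and by DESeq2, as were 0% of all genes.

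In polysomal RNA, HU changed the 9 output genes by -0.22 (SPRED1) to 0.18 (ETV4) in siCTRL cells and by -0.19 (PHLDA1) to 0.16 (SPRED2) in siLSM14A cells. CCND1 changed by -0.11 (95% interval -0.51 to 0.29) and by 0.06 (95% interval -0.32 to 0.43). ETV5 did not overlap in siCTRL cells, at 160, 152 and 151 CPM untreated and 147, 147 and 142 CPM with HU (log2 change -0.09, 95% interval -0.40 to 0.23), as for 7.46% of all genes. Again 0 of 10 were called by either tool and 0 had an unadjusted p under 0.05, with 0% of all genes called. The effect of the knockdown on CCND1 did not differ detectably between NT and HU. Its interaction of siRNA and HU was -0.12 in total RNA (95% interval -0.33 to 0.10, edgeR unadjusted p = 0.258) and 0.20 in polysomal RNA (95% interval -0.36 to 0.75, edgeR unadjusted p = 0.456). For the 9 other genes it lay between -0.13 and 0.03 in total RNA and between -0.16 and 0.41 in polysomal RNA, with 0 of 10 called by either tool and 0% of all genes.

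The 10 genes had very unequal shares on polysomes. Polysomal RNA was compared with total RNA within each condition, relative to all genes, whose median was -0.03 in siCTRL NT cells. There, 2 of the 10 were higher in polysomal RNA, where 31.4% of 12431 genes were, and 4 were lower, where 32.3% were. The same 2 and 4 were called in siCTRL HU (36.2% higher and 37.4% lower over all genes), with CCND1 lower as well, in siLSM14A NT (32.1% and 32.3%) and in siLSM14A HU (32.8% and 34.1%). With most of all genes called, the number called is no result about these 10, and their values are given as a description.

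ETV4 and ETV5 were the genes richer on polysomes, but for ETV4 a correction for GC content, described below, turned the difference in siCTRL NT from 0.64 to -0.05 and ended the call in all 4 conditions. The log2 TE of ETV4 was 0.68, 0.81 and 0.38 in siCTRL NT and between 0.32 and 0.90 in the other 9 replicates. Its polysomal RNA was above its total RNA by 0.64 on the log2 scale in siCTRL NT cells (SE 0.14, edgeR adjusted p = 0.00475) and by 0.62 to 0.82 in the other conditions. ETV5 had a log2 TE of 0.66, 0.49 and 0.43 in siCTRL NT, and its difference was 0.52 (SE 0.10, edgeR adjusted p = 0.00186), with 0.44 to 0.65 elsewhere. In every one of the 12 replicates both ETS factor genes had a log2 TE above 0.

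The 4 genes poorer on polysomes were SPRED2, SPRED1, SPRY4 and SPRY2. SPRED2 had a log2 TE of -1.17, -1.36 and -0.96 in siCTRL NT and a difference of -1.16 between the fractions (SE 0.13, edgeR adjusted p = 0.000344). SPRED1 had a log2 TE of -1.13, -1.20 and -0.73 and a difference of -1.01 (SE 0.14, edgeR adjusted p = 0.000571), which the GC correction took to -0.18. SPRY4 followed at -0.71 (SE 0.13, edgeR adjusted p = 0.00179) and SPRY2 at -0.45 (SE 0.12, edgeR adjusted p = 0.0113). All 4 had a log2 TE below 0 in every replicate of all 4 conditions. Leaving out replicate 2 of siCTRL NT or replicate 3 of siLSM14A NT ended the SPRY2 call in that condition, and leaving out replicate 1 of siLSM14A HU ended that of ETV5.

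CCND1, DUSP4, DUSP6 and PHLDA1 were near the middle. CCND1 differed by -0.19 (95% interval -0.48 to 0.10, edgeR adjusted p = 0.219) in siCTRL NT, and by -0.36 (95% interval -0.70 to -0.03, edgeR adjusted p = 0.0466) in siCTRL HU. The latter call was absent with DESeq2, with RLE size factors, and without replicate 1 or replicate 2 of siCTRL HU. In siLSM14A cells the difference of CCND1 was -0.19 untreated and -0.13 with HU. DUSP4 stayed between -0.03 and 0.03 and DUSP6 between -0.11 and 0.10 over the 4 conditions, while PHLDA1 lay between -0.26 and -0.12.

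**Figure D4:**
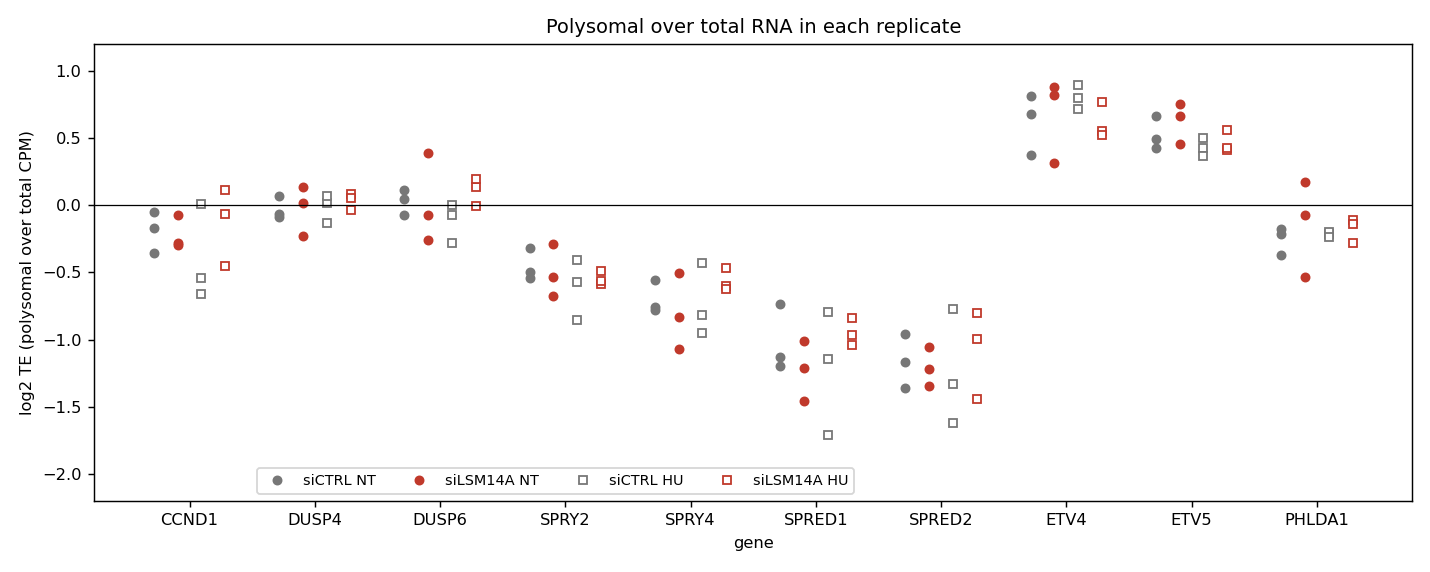
Log2 TE, the log2 ratio of polysomal to total CPM, of the 10 genes in each of the 12 replicates (grey siCTRL, red siLSM14A, filled circles NT, open squares HU). ETV4 and ETV5 lie above 0 and SPRY2, SPRY4, SPRED1 and SPRED2 below 0 in every replicate, and within each gene siLSM14A and siCTRL overlap in both treatments.

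These differences between fractions moved with base composition over the whole transcriptome. Across the genes tested, the log2 difference between polysomal and total RNA had a Spearman correlation with exon GC content of 0.663 in siCTRL NT, 0.709 in siCTRL HU, 0.654 in siLSM14A NT and 0.639 in siLSM14A HU. With the length of the 3' UTR of the representative transcript it was -0.383 in siCTRL NT. ETV4 had the highest exon GC content of the 10 (60.1%) and the shortest 3' UTR of the 9 genes with such a transcript (673 bases), and SPRED1 had the lowest GC content (36.5%) and the longest 3' UTR (5585 bases). SPRED2 and ETV5, at 49.7% and 47.9% GC and with 3' UTRs of 2650 and 2325 bases, were alike in both measures. SPRED2 was poorer and ETV5 richer on polysomes. Their 5' UTRs differed, at 612 and 224 bases, and over all genes 5' UTR length had a correlation of -0.216 with the difference in siCTRL NT. The part of these features was not tested.

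With each library corrected for GC content, the values of the middle genes and of the extremes of GC changed. ETV4 went from 0.64 to -0.05 in siCTRL NT and lost its call in all 4 conditions, and SPRED1 went from -1.01 to -0.18 and lost its call in siCTRL NT and siCTRL HU. CCND1 went from -0.19 to -0.52 (edgeR adjusted p = 0.0161) and DUSP4 from -0.03 to -0.37 (edgeR adjusted p = 0.0121), and both were called as lower in all 4 conditions. PHLDA1 turned from below 0 to above it in all 4 conditions, at 0.31 in siCTRL HU (edgeR adjusted p = 0.0262) and 0.21 in siLSM14A HU (edgeR adjusted p = 0.0458), and DUSP6 was called at 0.22 in siLSM14A HU. SPRED2 at -1.29, SPRY4 at -1.05, SPRY2 at -0.64 and ETV5 at 0.53 in siCTRL NT kept direction and call in all 4 conditions. The corrected fits called 54.8% of all genes in siCTRL NT, 57.1% in siCTRL HU, 55.6% in siLSM14A NT and 58.5% in siLSM14A HU.

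**Figure D5:**
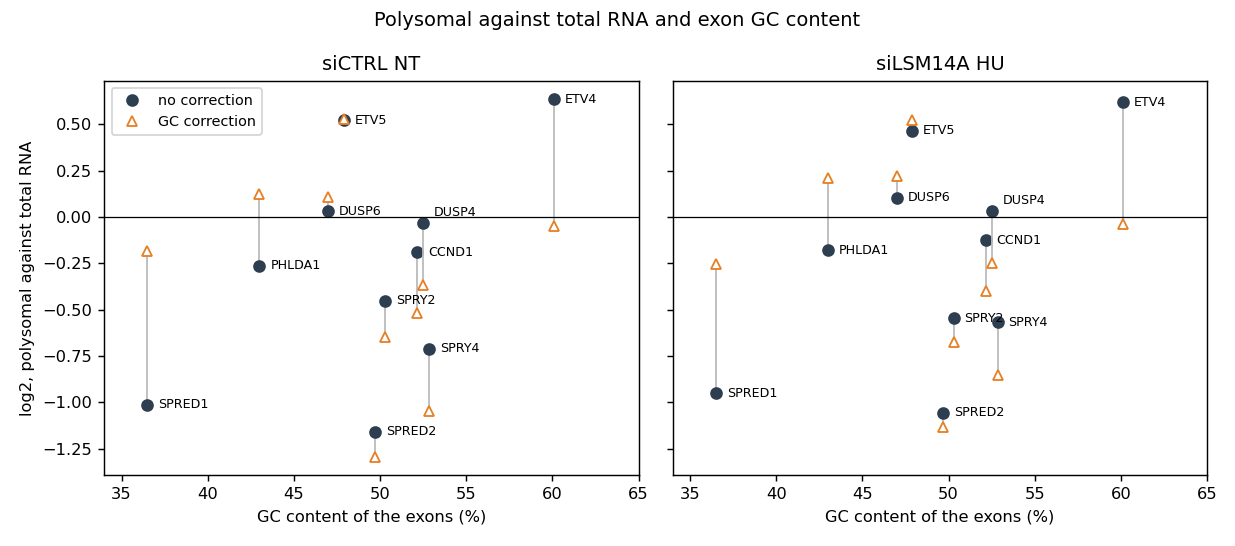
Log2 difference between polysomal and total RNA of the 10 genes against the GC content of their exons, in siCTRL NT (left) and siLSM14A HU (right). Dots are edgeR estimates without and triangles with the GC correction, joined by gene (CCND1, DUSP4 and SPRY4, all at 52.5% GC, are drawn slightly apart); ETV4 and SPRED1 move most, and SPRED2 and ETV5 stay in place.

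A further 16 genes known as ERK outputs were examined by the same fits. In untreated total RNA 1 of 16 was called higher and 0 lower (0.175% and 0.391% of all genes), with a median log2 change of 0.11. An edgeR unadjusted p under 0.05 was found for 6 of 16, where 10.8% of all genes had one. These were VGF, HMGA2, DUSP5, FOSL1 and SH2B3 as higher and SPRY1 as lower. The called gene was HMGA2, a chromatin protein, at 89.0, 82.4 and 84.1 CPM with siCTRL and 100, 108 and 109 CPM with siLSM14A (log2 change 0.32, SE 0.06, edgeR adjusted p = 0.0361). Its call was lost with the replicate block, in 1 fit over all 24 libraries, and without any 1 of 4 of the 6 replicates. The largest change belonged to VGF, a neurosecretory protein gene, which went from 17.8, 27.2 and 19.7 CPM to 32.2, 38.4 and 35.4 CPM without overlap (log2 change 0.70, SE 0.13, edgeR adjusted p = 0.051). VGF was called there in 5 of 9 alternative fits, the replicate block and the GC correction among them, and in 1 of 6 fits without a replicate. With HU 1 of 16 was called higher and 1 lower (0.24% and 0.561% of all genes), with a median of 0.08. An edgeR unadjusted p under 0.05 was found for 4 of 16, where 8.54% of all genes had one. These were VGF, HMGA2 and EPHA2 as higher and SPRY1 as lower. VGF was higher, at 24.3, 22.5 and 20.6 CPM with siCTRL and 31.5, 40.1 and 28.98 CPM with siLSM14A (log2 change 0.57, SE 0.11, edgeR adjusted p = 0.0297). In both treatments the estimate of VGF was above that of CCND1 (0.59 untreated and 0.48 with HU), a difference that was not tested. SPRY1, another Sprouty gene, was lower, at 35.3, 34.6 and 33.1 CPM with siCTRL and 23.1, 28.1 and 22.9 CPM with siLSM14A (log2 change -0.48, SE 0.08, edgeR adjusted p = 0.0148). In untreated cells SPRY1 changed by -0.39 (edgeR adjusted p = 0.111). Both HU calls were lost in 1 fit over all 24 libraries and without any 1 of 3 of the 6 replicates. DESeq2 called all 3 of these genes in both treatments, in fits that called 1.59% of all genes untreated and 1.52% with HU. With the replicate number as a block, 4 of 16 were called higher with HU (EPHA2, FOSL1, VGF and HMGA2) and 1 lower (SPRY1), where 6.85% of all genes were called. For the knockdown in polysomal RNA 0 of 16 were called by edgeR or DESeq2, and 2 untreated and 1 with HU had an unadjusted p under 0.05 (1.96% and 4.99% of all genes). For the knockdown in TE 0 were called by either tool and 0 had an unadjusted p under 0.05.

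Of 20 genes of the ERK cascade itself, from adaptors and RAS to RAF, MEK, ERK and RSK, 0 were called in total RNA in either knockdown comparison by edgeR or DESeq2. At an unadjusted p under 0.05 there were 3 untreated and 0 with HU, where 10.8% and 8.54% of all genes were. Their median changes were 0.03 and 0.01. The largest changes were -0.26 for MAPK3, which encodes ERK1, in untreated cells (SE 0.08, edgeR adjusted p = 0.233) and 0.18 for KSR1, a scaffold of the cascade, with HU (SE 0.16, edgeR adjusted p = 0.85). Of 12 partners and regulators of cyclin D, 11 were tested and 0 were called in either comparison by edgeR without a block or GC correction. DESeq2 called CDK6 in untreated cells, and edgeR with the GC correction called it as higher in both treatments. At an unadjusted p under 0.05 there were 4 and 3, beside the same 10.8% and 8.54%, and the medians were 0.13 and 0.07. CDK6, a kinase partner of cyclin D1, had the largest change in both, at 0.26 (SE 0.06, edgeR adjusted p = 0.101) and 0.20 (SE 0.06, edgeR adjusted p = 0.23). With HU and the replicate block, edgeR called CDK6 and CDKN1A higher and CDKN2A lower, in the fit that called 6.85% of all genes.

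The genes whose total RNA was most like that of CCND1 over the 12 total RNA libraries were TBX3 (Pearson's r = 0.97), TPM1 (0.96) and LYPD1 (0.96), out of 12854 genes. The most like of the 9 ERK outputs was SPRED1, with an r of 0.63 at rank 819, and the r of SPRY4 and ETV4 were -0.42 and -0.43. Over the 12 polysomal libraries AMMECR1 (0.90), DCBLD2 (0.89) and SGTB (0.88) were most like CCND1, and the nearest of the 9 was PHLDA1 with an r of 0.63 at rank 541. These values describe the libraries, which share their conditions and depth, and carry no test.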

How the data were processed

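Total and polysomal RNA of A2058 cells was sequenced by the study as stranded paired-end reads, trimmed, aligned to hg19 with STAR 2.6.1a and counted on Gencode 34 genes. The values the authors deposited are counts per gene, without normalization; all columns were used (0 left out). Symbols came from a later Gencode release lifted to hg19, in which 708 of 20345 IDs had no entry. The tests used the 19086 protein-coding genes.

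Members and lists were chosen with earlier results of these data known. The 10 members were named in every comparison, and genes of the other lists if called or, in the total RNA knockdown comparisons, if largest in change. Tests were quasi-likelihood F-tests of edgeR 4.0.16 (R 4.3.3) with TMM factors, with genes kept by filterByExpr (minimum count 10, minimum total 15). P-values were adjusted by Benjamini-Hochberg over all genes and called under 0.05. All 10 members passed the filter in each comparison. TE was the interaction of fraction and condition. Xtail, used by the study, was not used. Libraries held 24789280 to 44897501 counts, and the lowest count of a member in any library was 710 (SPRED2). No replicate pair agreed within sampling noise (chi-square per gene 6.01 to 120 over 24 pairs). Nothing in the labels says how replicates were grown, so p-values measure the spread between these samples, which may be technical.

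Replicate numbers pair samples where all 3 same-numbered deviations correlated above 0.1, as in total RNA of siCTRL HU with siLSM14A HU (0.33, 0.18, 0.25), of siCTRL NT with siCTRL HU in total (0.27, 0.25, 0.19) and polysomal RNA (0.25, 0.18, 0.45), and between the fractions of siLSM14A HU (0.17, 0.15, 0.24). The other pairs of groups did not meet it. The GC correction was a loess curve (span 0.3) of log2 CPM on exon GC content in each library. CPM means are TMM-scaled, and log2 CPM for likeness used a prior count of 2. Alternatives were DESeq2 1.42.0, RLE size factors, all genes, no filter, at least 10 counts in every library, replicate and culture blocks, the GC correction, all 24 libraries in 1 fit, and each replicate left out. Scripts were tested on simulated data. UTR lengths came from the MANE Select transcripts, in Python 3.11.15.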

Additional observations from a re-analysis of the deposited data

How the results depend on the processing

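Among comparisons of conditions, the number of the 10 genes called moved in 8 cases. In 1 edgeR fit over all 24 libraries, 0 genes in place of 1 were called in total RNA after knockdown, untreated and with HU, and 1 in place of 0 (CCND1) in polysomal RNA with HU. With HU, total RNA gave 2 calls in place of 1, with SPRY4 added, under the replicate block, the GC correction and both together, and polysomal RNA gave 1 (CCND1) in place of 0 under the replicate block and under both. The cause was not tested. Alone, the replicate block changed no other call of these 10 genes. In polysomal RNA with HU the numbers did not pair the samples. Over all genes, total RNA after knockdown gave 71 calls untreated and 100 with HU in edgeR, 200 and 189 in DESeq2, 45 and 855 with the replicate block, 119 and 159 with the GC correction, 58 and 647 with both, and 13 and 17 in 1 fit over all 24 libraries. Leaving out 1 replicate gave 1 call in both total RNA knockdown comparisons and 0 to 0 in all other comparisons of conditions; between fractions it gave 5 to 6 (siCTRL NT, siLSM14A NT and siLSM14A HU) and 6 to 7 (siCTRL HU).

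Between fractions, the GC correction gave 6 calls in place of 6 in siCTRL NT, 7 in place of 7 in siCTRL HU, 7 in place of 6 in siLSM14A NT and 9 in place of 6 in siLSM14A HU, and DESeq2 and RLE size factors gave 6 in place of 7 in siCTRL HU. Of values called before or after, directions reversed under the GC correction and under block and GC correction together. ETV4 went to -0.0486 and -0.0543 in siCTRL NT, -0.0485 and -0.0493 in siCTRL HU, -0.0276 and -0.0276 in siLSM14A NT, and -0.039 and -0.0395 in siLSM14A HU. DUSP4 went to -0.33 and -0.33 in siLSM14A NT and to -0.25 and -0.25 in siLSM14A HU. PHLDA1 went to 0.31 and 0.30 in siCTRL HU and to 0.21 and 0.21 in siLSM14A HU. Values called neither before nor after that changed sign under the GC correction were PHLDA1 in siCTRL NT (0.12) and siLSM14A NT (0.31) and DUSP6 in siCTRL HU (0.03).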
